A study of Homo sapiens with 6 samples.

Results

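Gene markers that are used to describe stem-like tumor cells, together with aldehyde dehydrogenase (ALDH) genes whose activity marks such cells, were followed by RNA-seq in OVCAR-3 cells with and without an shRNA against COX-1. The set held 10 genes, CD44, PROM1, KIT, ALDH1A1, ALDH1A2, ALDH1A3, ALDH3A1, ALDH1B1, SOX2 and BMI1, taken by symbol from the 34811 genes of the count table, and all 10 had a row. OVCAR-3 is an established human ovarian carcinoma cell line. The control condition, OV3/SCR, carries a scrambled pRS shRNA plasmid and wild-type COX-1 status, and the knockdown, OV3/COX1KD, carries a COX-1 shRNA on the same vector. Both were stable puromycin-selected lines, without further treatment, and each was read in 3 libraries from independent passages. The libraries came from clone #1 of OV3/SCR and clone #2 of OV3/COX1KD, so that effects of the clone and of the shRNA cannot be told apart, and p-values measure the spread between passages of 1 clone. The targeted gene PTGS1, which encodes COX-1, had 713, 658 and 641 counts in OV3/SCR and 456, 486 and 501 in OV3/COX1KD libraries (log2 fold change -0.45, edgeR false discovery rate = 1.3e-06).

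Stem-like tumor cells, also called tumor-initiating cells, are a subset of tumor cells that can seed and renew a tumor. In ovarian cancer they are sorted by surface proteins, among them the hyaluronan receptor CD44, the membrane glycoprotein prominin-1 (CD133, PROM1) and the stem cell factor receptor KIT (CD117), or by ALDH activity, which depends on cytosolic and mitochondrial enzymes that oxidize aldehydes, including retinaldehyde to retinoic acid. SOX2 is a pluripotency transcription factor, and BMI1 is a subunit of Polycomb repressive complex 1 that keeps developmental genes and the CDKN2A locus silent. RNA from a whole culture averages over its cells, so that fewer marker-positive cells and less RNA per cell cannot be told apart.

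The libraries held 25291505 to 27391538 counts. All 12 ovarian carcinoma epithelium markers, such as PAX8, WT1, KRT7 and MUC16, were tested, summing to 5397 to 5455 CPM (counts scaled by library size, with TMM factors, to a common total) in OV3/SCR and 7048 to 7250 in OV3/COX1KD libraries, with 10 higher and 2 lower. The 2 lower were PAX8, from 755 to 446 CPM (log2 fold change -0.76), and KRT7 (-0.14). Thus 100% of these markers had an edgeR false discovery rate under 0.01, beside 47.9% of all tested genes. Markers of other cells had far lower sums. The 10 leukocyte markers with a row summed to 4.01 to 5.94 CPM over the 6 libraries, the 10 fibroblast markers to 9.52 to 15.6 and the 7 endothelial markers to 4.41 to 6.04, and of their 13 tested genes COL1A1 fell and TEK rose. Among the leukocyte markers CD8A had 66 to 103 counts per library, while the other 9 had 0 to 16, the defining marker PTPRC 2 to 8. Among the fibroblast markers COL1A1 had 258 to 270 counts in OV3/SCR and 143 to 160 in OV3/COX1KD libraries, FAP had 39 to 52 and ACTA2 22 to 51 over the 6 libraries, and the other 7 had 0 to 24, with COL3A1 and LUM at 0 in every OV3/SCR library. Among the endothelial markers VWF had 25 to 52 counts, KDR 38 to 45 and TEK 11 to 31, and the other 4 had 0 to 22, CDH5 being at 0 to 3. Their part, and that of the higher epithelial sum in OV3/COX1KD, in the results on the gene set was not tested. Library pairs within a condition differed by a chi-square per degree of freedom of 1.82 to 6.40, the highest with OV3/COX1KD replicate 2, and pairs across conditions by 46.2 to 61.0.

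To show where transcription of these genes starts, the 250 bases upstream of the RefSeq start are printed for 3 genes. Each of them has 1 start in the collection used here. One of them fell (CD44), one rose (ALDH1B1) and one did not pass the test (SOX2). The sequences are from RefSeq on GRCh38.p14, chr11:35138921-35139170 for CD44, chr9:38392452-38392701 for ALDH1B1 and chr3:181711675-181711924 for SOX2, all on the plus strand and written 5′ to 3′. Capitals mark matches, on either strand, to the GC box (GGGCGG), the CCAAT box (CCAAT) or the half-site of the cAMP response element (TGACG).
CD44: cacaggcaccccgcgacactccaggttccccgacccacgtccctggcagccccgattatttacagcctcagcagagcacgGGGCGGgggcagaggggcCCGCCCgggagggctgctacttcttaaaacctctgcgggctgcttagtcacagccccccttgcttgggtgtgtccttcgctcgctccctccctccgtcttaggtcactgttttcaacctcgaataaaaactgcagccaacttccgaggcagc
ALDH1B1: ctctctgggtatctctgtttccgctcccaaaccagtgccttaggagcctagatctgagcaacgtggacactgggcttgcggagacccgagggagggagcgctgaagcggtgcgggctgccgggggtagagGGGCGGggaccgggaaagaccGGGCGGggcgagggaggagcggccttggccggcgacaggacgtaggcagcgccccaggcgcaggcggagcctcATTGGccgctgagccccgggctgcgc
SOX2: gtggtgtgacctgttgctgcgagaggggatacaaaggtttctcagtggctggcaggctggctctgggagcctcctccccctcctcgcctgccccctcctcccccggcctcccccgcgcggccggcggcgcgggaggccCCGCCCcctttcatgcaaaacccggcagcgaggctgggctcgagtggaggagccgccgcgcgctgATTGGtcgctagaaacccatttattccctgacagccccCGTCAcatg
The CD44 and ALDH1B1 windows each held 2 GC boxes, and the SOX2 window held 1. ALDH1B1 and SOX2 each had 1 CCAAT box, and SOX2 alone among the genes of the set with a window had a TGACG half-site. In the collection of RefSeq starts used here 9 of the 10 genes had an entry, with 14 starts in all. ALDH3A1 had none there, so its upstream bases were not looked at. Of the 9 genes, 8 had a GC box in at least 1 window, a motif held by 42.6% of all 35116 upstream windows of this length. A CCAAT box was found in 6 of the 9 genes and in 32.0% of all windows, and TGACG in 21.2% of all windows. Counts of genes and shares of windows are unlike measures and cannot be compared directly. Only 6 of the 9 genes had 1 start, and a gene with more starts had more windows in which to match. No window of the set held the full element TGACGTCA (1.65% of all windows) or TATAAA (10.7%), and 1 window, of PROM1, held the AP-1 motif TGANTCA (6.57%). GC box and CCAAT matches do not overlap in letters, while TGACG lies within TGACGTCA. A match is a description of the letters only.

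Of the 10 genes, 8 passed the filter on low counts and were tested by edgeR, in which a gene was called at a false discovery rate (FDR) under 0.01 over all 17309 tested genes. CD44, ALDH1A2 and BMI1 fell in OV3/COX1KD cells and ALDH1B1 rose. ALDH1A2 passed the filter only through OV3/SCR, where it is high, so its call is given as a description. The counts of calls below include it. KIT, ALDH1A1, ALDH1A3 and SOX2 did not pass the test, and PROM1 and ALDH3A1 were too scarce to be tested. Of all tested genes 47.9% were called, 25.8% as higher and 22.1% as lower in OV3/COX1KD, so that the 4 called of 8 tested were close to the share over all genes. With the log2 fold change beyond 0.5 that the study used for colouring, CD44 and ALDH1A2 remained, 2 of 8 against 19.9% of all tested genes. With its fold change above 2.5, ALDH1A2 remained, a gene that passed the filter only through OV3/SCR, against 3.92% of all tested genes, and a test against that fold change itself (glmTreat) called 0 of the 8, with 0 at an unadjusted p under 0.05 as well. The median log2 fold change of the 8 was -0.45, with -0.0087 over all tested genes. In 5 of the 8 the libraries of the conditions did not overlap, which held for 63.1% of all tested genes. Under total count scaling the split over all genes moved from 4473 higher and 3820 lower to 3466 higher and 4978 lower, and the 4 calls of the set were kept.

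**Figure D1:**
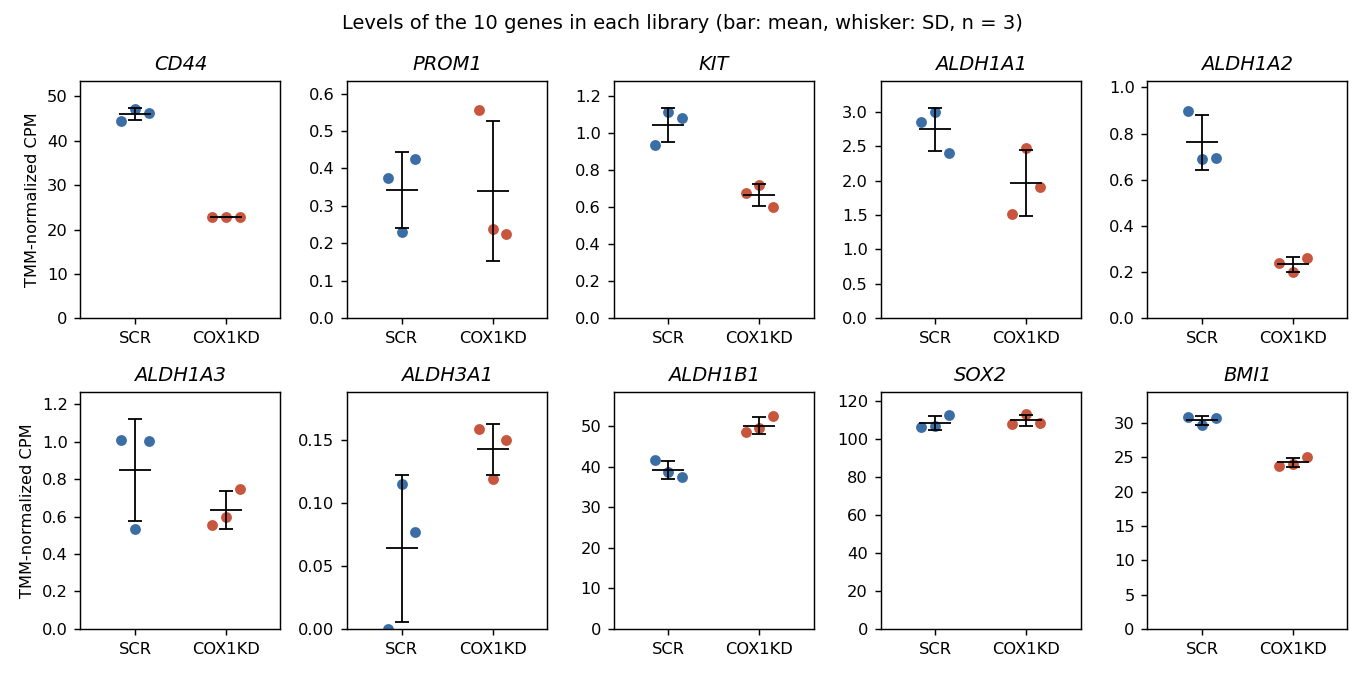
TMM-normalized CPM of the 10 genes in each of the 6 libraries, with 1 panel and its own linear axis from 0 for each gene; points are libraries, bars the mean and whiskers the SD of 3. CD44, KIT, ALDH1A2 and BMI1 lie lower in every OV3/COX1KD library and ALDH1B1 higher, while KIT did not pass the test (FDR = 0.0329). ALDH3A1 also lies higher in every OV3/COX1KD library, but on 0 to 4 counts per library, and was not tested.

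To set the genes beside each other, TMM-normalized CPM values were divided by exon length in kb. On this scale SOX2 was the highest of the set in both conditions, at 43.3 ± 1.43 CPM per kb (SD, n = 3) in OV3/SCR, above 94.96% of tested genes. ALDH1B1 followed at 12.6 ± 0.706, BMI1 at 6.91 ± 0.144 and CD44 at 4.60 ± 0.139 CPM per kb in OV3/SCR. ALDH1A1 stood lower, at 0.966 ± 0.109, and the other 5 genes were under 0.2 CPM per kb in every library. These first 5 held the same order in OV3/COX1KD, without overlap between neighbours. Among the low genes the order was not fixed. In OV3/SCR the levels per kb of ALDH1A3, ALDH1A2 and KIT overlapped between neighbours, and in OV3/COX1KD those of KIT, PROM1, ALDH3A1 and ALDH1A2 did. ALDH1A2 moved from the seventh place to the last.

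**Figure D2:**
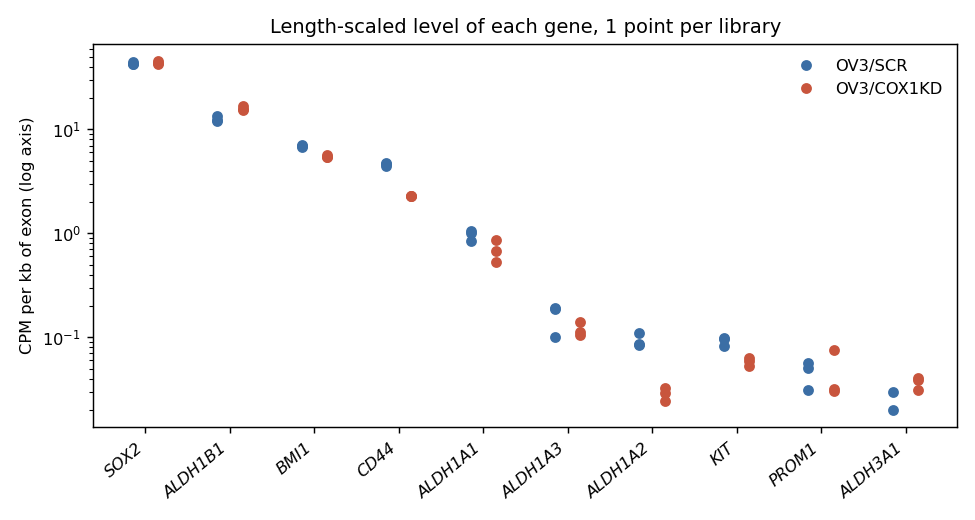
CPM per kb of exon on a log axis for the 10 genes, ordered by their mean in OV3/SCR, with 1 point per library; the OV3/SCR library in which ALDH3A1 had 0 counts is not drawn. SOX2 stands near 43 CPM per kb in both conditions, and 5 genes lie under 0.2.

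Of the surface markers, CD44 had most reads and the clearest change. CD44 (ENSG00000026508, GRCh37 chromosome 11, 35160429 to 35253949) was counted 1187, 1231 and 1200 times in OV3/SCR and 573, 574 and 607 times in OV3/COX1KD libraries. Each knockdown library lay below each control library, and the 3 knockdown libraries were nearly alike. Its level was 46.0 ± 1.39 CPM (SD, n = 3) in OV3/SCR and 22.8 ± 0.0743 in OV3/COX1KD cells, or 49.6% of the control, with a log2 fold change of -1.01 (its standard error, SE, was 0.048, edgeR FDR = 6.3e-13). Of all tested genes, 92.6% had a smaller absolute log2 fold change. The counts are per gene, and the standard and variant isoforms of CD44 were not told apart.

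KIT, a receptor tyrosine kinase, was scarce. KIT (ENSG00000157404, GRCh37 chromosome 4, 55523434 to 55606949) had 25, 29 and 28 counts in OV3/SCR and 17, 18 and 16 in OV3/COX1KD libraries. The conditions did not overlap, yet the log2 fold change of -0.65 (95% interval -1.18 to -0.12, edgeR FDR = 0.0329) did not pass the threshold, and its FDR was 0.0169 to 0.124 over the other settings. Its ligand gene KITLG, which encodes stem cell factor, had 293, 345 and 331 counts in OV3/SCR and 381, 373 and 458 in OV3/COX1KD libraries and rose, with a log2 fold change of 0.35 (SE 0.081, edgeR FDR = 9.1e-04). Without OV3/SCR replicate 1 the rise of KITLG missed the threshold (FDR = 0.0106).

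PROM1, which encodes the protein carrying the CD133 epitopes, was near the limit of detection in both conditions. PROM1 (ENSG00000007062, GRCh37 chromosome 4, 15964699 to 16086001) had 10, 6 and 11 counts in OV3/SCR and 14, 6 and 6 in OV3/COX1KD libraries. The conditions overlapped, and the ratio of the summed counts scaled to library size, OV3/COX1KD over OV3/SCR, was 0.985 (95% counting interval 0.552 to 1.75). A change within that interval was not detectable at this depth, and unfiltered counts gave an edgeR FDR of 0.998. The related prominin gene PROM2 had 69, 76 and 75 counts in OV3/SCR and 107, 151 and 131 in OV3/COX1KD libraries, and rose by a log2 fold change of 0.85 (SE 0.14, edgeR FDR = 4.2e-05).

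**Figure D3:**
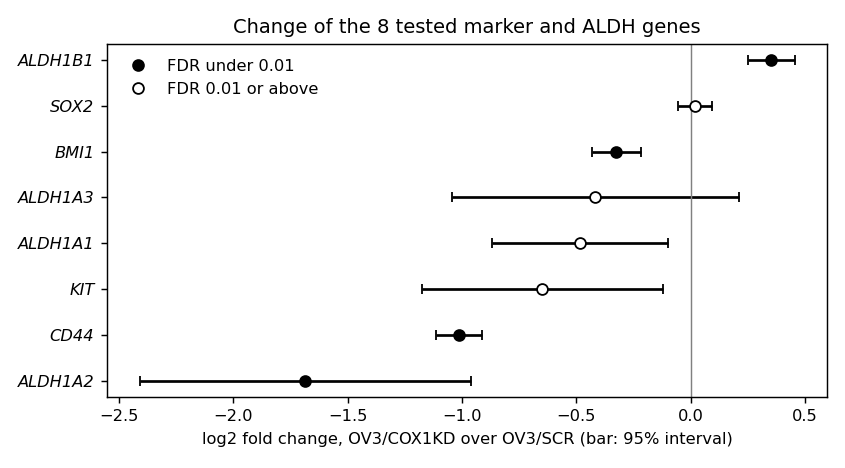
Log2 fold change of OV3/COX1KD over OV3/SCR for the 8 tested genes, with 95% intervals from edgeR; filled points had an FDR under 0.01. ALDH1A2 lies lowest at -1.68 with a wide interval, CD44 at -1.01 with a narrow one, and SOX2 next to 0.

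ALDH1A1, ALDH1A2 and ALDH1A3 are the cytosolic retinaldehyde dehydrogenases that make retinoic acid. ALDH1A2 (ENSG00000128918, GRCh37 chromosome 15, 58245622 to 58790065) had 24, 18 and 18 counts in OV3/SCR and 6, 5 and 7 in OV3/COX1KD libraries. No library of one condition reached the range of the other, and the level fell from 0.761 ± 0.119 CPM (SD, n = 3) to 0.233 ± 0.0319, a log2 fold change of -1.68 (SE 0.35, edgeR FDR = 3.3e-04). ALDH1A2 passed the filter on low counts only through OV3/SCR, where it is high, so that with these knockdown counts it could be tested only if it differed. With 10 counts required in every library it was not tested, and with no filter at all its log2 fold change was -1.66 (edgeR FDR = 7.7e-05). Exons of AQP9, on the other strand, cover 4.36% of its exon length, and AQP9 had 4 counts or fewer in each library.

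ALDH1A1 (ENSG00000165092, GRCh37 chromosome 9, 75515587 to 75695358), the isozyme most often tied to ALDH activity in sorted tumor cells, had 76, 78 and 62 counts in OV3/SCR and 38, 62 and 51 in OV3/COX1KD libraries. The conditions met at 62 counts, and the log2 fold change of -0.48 (95% interval -0.87 to -0.099, edgeR FDR = 0.0298) did not pass the threshold. Without OV3/COX1KD replicate 2, its highest knockdown library, the log2 fold change was -0.67 and passed (FDR = 0.00196), while without OV3/COX1KD replicate 1, its lowest, it was -0.33 (FDR = 0.152). Over the other settings the FDR was 0.0121 to 0.111, with 0.0671 by DESeq2. ALDH1A3 (ENSG00000184254, GRCh37 chromosome 15, 101417919 to 101456831) had 27, 14 and 26 counts in OV3/SCR and 14, 15 and 20 in OV3/COX1KD libraries. These overlapped, with a log2 fold change of -0.42 (95% interval -1.04 to 0.21, edgeR FDR = 0.242). Exons of ALDH1A3-AS1, an antisense gene with 33 to 61 counts per library, cover 32.2% of the ALDH1A3 exon length. Whether the counting used strand is not given in the sources used here, so reads of these genes may not have been parted.

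Summed over the 3 ALDH1A genes, the level per kb was 1.30, 1.24 and 1.12 in OV3/SCR and 0.665, 1.01 and 0.846 CPM per kb in OV3/COX1KD libraries. All knockdown libraries were below all control libraries (68.8% of the control mean, exact permutation p = 0.1, 2-sided, the smallest that 3 against 3 libraries can give). ALDH1A1 made up 79.2 ± 5.13% (SD, n = 3) of this sum in OV3/SCR and 82.0 ± 3.87% in OV3/COX1KD cells (exact permutation p = 0.5). The share of ALDH1A2 was 7.67 ± 0.818% and 3.55 ± 1.01%, without overlap (exact permutation p = 0.1), and that of ALDH1A3 was 13.2 ± 4.52% and 14.5 ± 2.93% (exact permutation p = 0.7). These 3 p-values, unadjusted, belong to shares that sum to 100% and are not independent. The ALDH1A2 share rests on the same counts as the call of ALDH1A2 and is likewise given as a description. The shares depend on the exon lengths used. From raw counts, mean shares in OV3/SCR and OV3/COX1KD were 63.1% and 68.8% for ALDH1A1. They were 17.4% and 8.47% for ALDH1A2, and 19.5% and 22.7% for ALDH1A3.

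The mitochondrial ALDH1B1 was the one gene of the set that rose. ALDH1B1 (ENSG00000137124, GRCh37 chromosome 9, 38392699 to 38398658) had 1111, 1009 and 966 counts in OV3/SCR and 1220, 1241 and 1396 in OV3/COX1KD libraries. Every knockdown library was above every control library, with 39.2 ± 2.20 CPM (SD, n = 3) in OV3/SCR and 50.1 ± 2.03 in OV3/COX1KD cells, for a log2 fold change of 0.35 (SE 0.049, edgeR FDR = 3.6e-06). Per kb, ALDH1B1 made up 91.1 ± 0.302% of the summed level of the 5 ALDH genes of the set in OV3/SCR and 94.8 ± 0.907% in OV3/COX1KD cells. That sum itself was 13.8 ± 0.782 and 16.9 ± 0.719 CPM per kb, higher in every knockdown library (exact permutation p = 0.1 for each, 2-sided, the smallest possible).

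ALDH3A1, a dehydrogenase of cornea and stomach that oxidizes aldehydes of lipid peroxidation, was at the limit of detection. ALDH3A1 (ENSG00000108602, GRCh37 chromosome 17, 19641297 to 19652256) had 0, 3 and 2 counts in OV3/SCR and 4, 3 and 4 in OV3/COX1KD libraries. On 5 against 11 counts the ratio of OV3/COX1KD over OV3/SCR was 2.25 with a 95% counting interval of 0.720 to 8.26, and unfiltered counts gave an edgeR FDR of 0.397. A difference was not detectable at this depth, at which 3 counts correspond to 0.112 to 0.120 CPM.

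The rest of the family was set beside these genes. Of the 14 other ALDH genes, 13 were tested, 9 rose, 1 fell and 3 did not pass the test, with a median log2 fold change of 0.57. The called genes made up 76.9% of those tested, beside 47.9% of all tested genes. ALDH3B2 had the largest rise (log2 fold change 1.13, SE 0.059, edgeR FDR = 3.4e-12), from 13.5 ± 0.752 to 29.5 ± 0.629 CPM (SD, n = 3). ALDH6A1, of valine breakdown, rose by 1.01 (SE 0.053, FDR = 3.6e-12), and ALDH5A1, of GABA breakdown, by 0.82 (SE 0.045, FDR = 7.4e-12) on the log2 scale. ALDH16A1 was the one that fell (log2 fold change -0.19, SE 0.047, FDR = 0.00162), and its call was lost without OV3/SCR replicate 1 (0 lower). ALDH2, the mitochondrial enzyme of acetaldehyde oxidation, had 28, 41 and 21 counts in OV3/SCR and 41, 47 and 43 in OV3/COX1KD libraries. Its difference of 0.57 on the log2 scale (edgeR FDR = 0.0397) missed the threshold and passed only without OV3/SCR replicate 2 (0.87, FDR = 0.00724). Over all 19 ALDH genes, 10 rose, 2 fell, 5 did not pass and 2 were not tested. The rises made up 58.8% of the tested ALDH genes, beside 25.8% of all tested genes. Of the 2 that fell, ALDH1A2 passed the filter only through OV3/SCR.

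**Figure D4:**
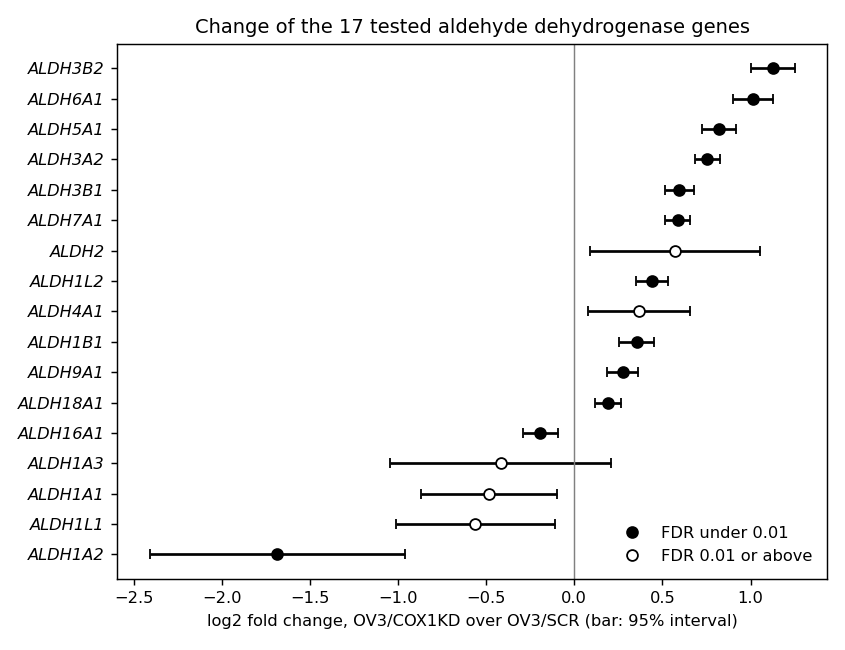
Log2 fold change of OV3/COX1KD over OV3/SCR with 95% intervals for the 17 tested ALDH genes; filled points had an FDR under 0.01. The 10 called rises, ALDH1B1 at 0.35 among them, lie right of 0, and the 3 ALDH1A genes lie left of it, of which ALDH1A2 was called.

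Genes that supply, bind, read and remove retinoic acid were followed as the pathway of the ALDH1A enzymes. Of 31 listed, 28 had a row and 25 were tested: 6 rose, 5 fell and 14 did not pass the test (median log2 fold change -0.038). With 44% of its tested genes called, the list was close to the 47.9% of all tested genes. The 5 that fell and this share include CYP26B1, described below, which passed the filter only through OV3/SCR. The binding protein genes CRABP2 and CRABP1 rose, CRABP2 from 203 ± 6.21 to 427 ± 4.95 CPM (SD, n = 3; log2 fold change 1.07, SE 0.030, edgeR FDR = 3.5e-16) and CRABP1 by 0.81 (SE 0.056, FDR = 2.1e-10). RXRA, a partner of the retinoic acid receptors, rose by 0.57 (SE 0.043, FDR = 8.0e-10). DHRS3, a retinaldehyde reductase that is itself induced by retinoic acid, had a log2 fold change of -0.49 (SE 0.043, FDR = 8.0e-09), FABP5 of -0.24 (SE 0.061, FDR = 0.00215) and RARRES2 of -1.01 (SE 0.19, FDR = 1.4e-04). RARRES1, another retinoic acid receptor responder and named after its values were seen, had 20, 20 and 25 counts in OV3/SCR and 37, 43 and 48 in OV3/COX1KD libraries and rose (log2 fold change 1.00, SE 0.22, FDR = 6.6e-04).

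The CYP26 enzymes, which break retinoic acid down and are induced by it, had few counts in OV3/COX1KD libraries. CYP26A1 had 10, 4 and 11 counts in OV3/SCR and 0, 1 and 0 in OV3/COX1KD libraries, a summed 25 against 1. On so few knockdown counts only a bound is given, with OV3/SCR at least 4.003-fold above OV3/COX1KD (lower end of the 95% counting interval). It was too scarce for the filter, and unfiltered counts gave an edgeR FDR of 3.6e-05. Since CYP26A1 was seen almost only in OV3/SCR, these values are given as a description. CYP26B1, named after its values were seen, had 41, 48 and 53 counts in OV3/SCR and 9, 7 and 7 in OV3/COX1KD libraries. It passed the filter only through OV3/SCR, and its values are given as a description (log2 fold change -2.58). RDH10, the retinol dehydrogenase that supplies retinaldehyde (-0.038, FDR = 0.581), STRA6, the retinol transporter (0.13, FDR = 0.618), and the receptor RARB, a retinoic acid target (0.12, FDR = 0.680), did not pass the test. Without OV3/SCR replicate 1 the fallen genes of this list numbered 3, and FABP5 missed the threshold there (FDR = 0.0200) and without OV3/COX1KD replicate 1 (0.0104).

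Around CD44, 19 of 20 listed hyaluronan and CD44 partner genes had a row and 15 were tested: 4 rose, 6 fell and 5 did not pass (median log2 fold change -0.11). Called were 66.7% of those tested, beside 47.9% of all tested genes. SPP1, which encodes osteopontin, a ligand of CD44, had 871, 789 and 829 counts in OV3/SCR and 82, 86 and 127 in OV3/COX1KD libraries and fell most (log2 fold change -3.04, SE 0.092, edgeR FDR = 9.3e-16). HAS3, a hyaluronan synthase, fell (log2 fold change -0.88, SE 0.12, FDR = 2.2e-06), and so did EZR, which encodes ezrin, a linker of CD44 to actin (-0.67, SE 0.031, FDR = 6.2e-13). Its relative MSN (moesin) rose by 0.63 (SE 0.035, FDR = 7.9e-12). KIAA1199, of hyaluronan breakdown, rose by 1.22 (SE 0.094, FDR = 1.2e-09), and HMMR, another hyaluronan receptor, by 0.29 (SE 0.036, FDR = 7.3e-07). ESRP1, a splicing factor that favours the variant exons of CD44, rose by 0.59 (SE 0.031, FDR = 3.3e-12). ESRP2 had a log2 fold change of 0.021 (FDR = 0.597) and -0.057 under total count scaling.

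BMI1 fell by a small amount. BMI1 (ENSG00000168283, GRCh37 chromosome 10, 22610028 to 22620413) had 823, 774 and 794 counts in OV3/SCR and 599, 603 and 666 in OV3/COX1KD libraries. The conditions did not overlap, with 30.4 ± 0.635 CPM (SD, n = 3) in OV3/SCR and 24.3 ± 0.629 in OV3/COX1KD cells, 79.8% of the control, a log2 fold change of -0.32 (SE 0.051, edgeR FDR = 1.7e-05). Exons of the readthrough gene COMMD3-BMI1 cover 22.8% of the BMI1 exon length. That gene had at most 1 count in each library, so few if any reads were given to it, and COMMD3, the upstream neighbour, did not pass the test (log2 fold change 0.13, FDR = 0.142). How reads on the shared exons were counted is not given in the sources used here, so some may be missing from the BMI1 counts.

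Of 28 other Polycomb genes, all tested, 5 rose, 5 fell and 18 did not pass (median log2 fold change -0.026), and under total count scaling 3 rose and 8 fell. In the main fit 35.7% of them were called, fewer than the 47.9% of all tested genes. RING1 (-0.088, FDR = 0.219) and RNF2 (-0.079, FDR = 0.236), the catalytic partners of BMI1, and EZH2 of Polycomb repressive complex 2 (-0.090, FDR = 0.0583) did not pass the test, EZH2 passing under total count scaling (FDR = 0.00107). PHC1 had a log2 fold change of -0.54 (SE 0.089, FDR = 3.0e-05), PHF1 of -0.51 (SE 0.064, FDR = 1.0e-06) and PCGF3, a relative of BMI1, of -0.36 (SE 0.038, FDR = 1.0e-07). CBX7, a reader subunit, rose by 0.59 (SE 0.083, FDR = 4.9e-06), PCGF5 by 0.23 (SE 0.047, FDR = 2.6e-04) and CBX2 by 0.23 (SE 0.048, FDR = 3.4e-04). The BMI1-regulated gene CDKN2A was counted 4280 to 4884 times per library, with a log2 fold change of 0.14 (SE 0.036, edgeR FDR = 0.00308) that lost its call under total count scaling (0.058, FDR = 0.186) and on leaving out replicate 2 or 3 of OV3/SCR or replicate 1 of OV3/COX1KD.

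SOX2 was abundant and did not pass the test. SOX2 (ENSG00000181449, GRCh37 chromosome 3, 181429713 to 181432224) had 2840, 2791 and 2922 counts in OV3/SCR and 2725, 2844 and 2901 in OV3/COX1KD libraries. The ranges overlapped, at 109 ± 3.59 and 110.1 ± 2.84 CPM (SD, n = 3), and the log2 fold change was 0.017 (95% interval -0.057 to 0.092, edgeR FDR = 0.694), with the sign turned under total count scaling (-0.060). SOX2-OT, the transcript in whose intron SOX2 lies, had 55, 49 and 51 counts in OV3/SCR and 99, 72 and 102 in OV3/COX1KD libraries (log2 fold change 0.85, SE 0.16, FDR = 1.5e-04).

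Of 29 pluripotency and SOX genes listed, 25 had a row and 17 were tested: 5 rose, 4 fell and 8 did not pass (median log2 fold change -0.15). The share called, 52.9%, was close to the 47.9% of all tested genes. The 4 that fell and this share include SOX3, which passed the filter only through OV3/SCR. SOX9 rose by 0.45 (SE 0.068, FDR = 1.1e-05), SOX12 by 0.34 (SE 0.041, FDR = 8.5e-07) and SOX17 by 0.31 (SE 0.040, FDR = 1.1e-06) on the log2 scale. The Krüppel-like factors fell, with log2 fold changes of -0.80 for KLF2 (SE 0.11, FDR = 2.5e-06), -0.43 for KLF5 (SE 0.037, FDR = 5.6e-09) and -0.39 for KLF4 (SE 0.067, FDR = 5.0e-05). SOX3, a close relative of SOX2, was named after its values were seen. It had 15, 14 and 20 counts in OV3/SCR and 4, 1 and 8 in OV3/COX1KD libraries. It too passed the filter only through OV3/SCR, and its values are given as a description (log2 fold change -1.85). POU5F1, which encodes OCT4, had 98, 78 and 80 counts against 67, 80 and 73 and did not pass (-0.19, FDR = 0.285), and NANOG, with 2 to 8 counts per library, was not tested.

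Of 29 other surface and efflux markers of stem-like cells, 28 had a row and 24 were tested: 9 rose, 9 fell and 6 did not pass (median log2 fold change -0.20). Called were 75% of the tested markers, beside 47.9% of all tested genes. Without OV3/SCR replicate 2 the fallen genes numbered 5. ABCB5, an efflux transporter, rose most, from 2.41 ± 0.484 to 9.37 ± 1.65 CPM (SD, n = 3; log2 fold change 1.96, SE 0.15, FDR = 1.0e-09), and the tetraspanin CD9 rose by 0.61 (SE 0.029, FDR = 9.1e-13). NCAM1, named after its values were seen, had 85, 100 and 72 counts in OV3/SCR and 12, 13 and 13 in OV3/COX1KD libraries (log2 fold change -2.71, SE 0.22, FDR = 2.6e-09). L1CAM, another adhesion molecule, had a log2 fold change of -0.50 (SE 0.038, FDR = 9.6e-10) and PROCR of -0.44 (SE 0.10, FDR = 0.00122, and 0.0118 without OV3/COX1KD replicate 1). ROR1, a receptor kinase, had -0.46 (SE 0.14, FDR = 0.00965) and lost its call in 8 of 12 other settings. ABCG2, the transporter of the side-population assay and also named after its values were seen, had 2 to 9 counts per library and was not tested.

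**Figure D5:**
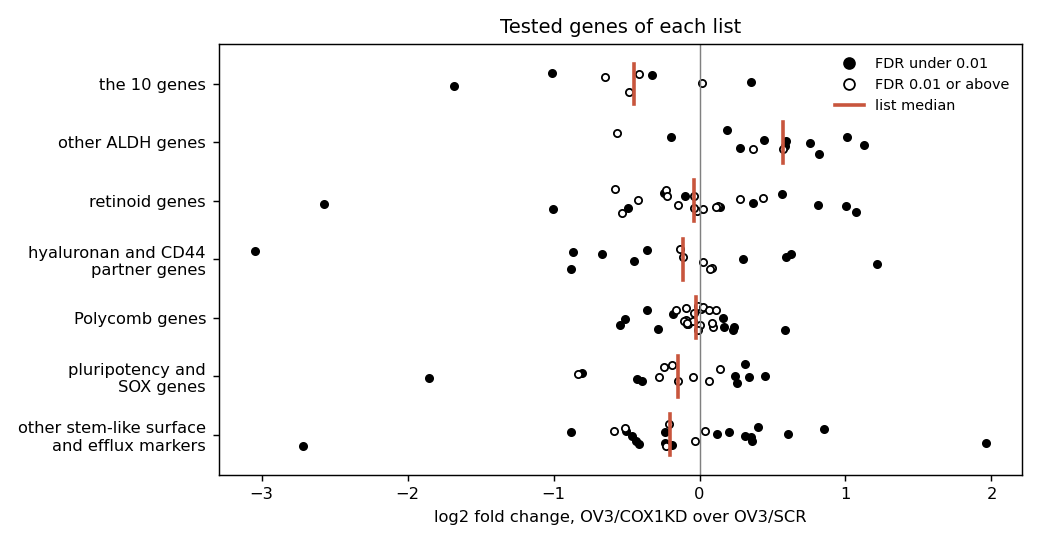
Log2 fold change of OV3/COX1KD over OV3/SCR for every tested gene of the set and of the 6 related lists, with 1 point per gene, filled at an FDR under 0.01, and the list median as a vertical line; the vertical scatter within a list carries no value. Rises and falls mix in each list, with medians from -0.45 for the set to 0.57 for the other ALDH genes.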

How the data were processed

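RNA-seq was done on 3 OV3/SCR and 3 OV3/COX1KD libraries. Reads were mapped by the authors with TopHat2 (build hg19), and the deposited values are raw HTSeq counts, not normalized. The gene annotation and the strand setting are not given in the sources used here.

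Tests were run with edgeR 4.0.16 (R 4.3.3): filterByExpr (17309 of 34811 genes kept), TMM scaling, glmQLFit and glmQLFTest on condition alone, with Benjamini-Hochberg adjusted p-values (FDR) over all kept genes. The SE is the log2 fold change divided by the square root of F. Scarce genes were given as a ratio of summed counts with an exact Poisson interval, which covers counting error only, since PCR copies are not independent molecules. GENCODE 44 (GRCh37 lift, the same assembly as hg19) gave exon lengths and coordinates for 33556 genes, and lengths may differ from the authors' annotation. Promoters were from a collection of RefSeq starts that held no entry for ALDH3A1.

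The genes and lists were chosen with earlier results of these data known. Named were all 10 genes, fixed partners, and up to 3 genes per list and direction with the largest log2 fold change among called genes whose conditions did not overlap and whose mean log2 CPM reached 1. Listed genes without a row were not analysed here, among them the partner HAS2. Alternatives were RLE and total count scaling, no filter, DESeq2 1.42.0, a minimum of 10 counts per library, a replicate block, glmTreat, raw-count shares and leaving out each library. The edgeR code was tested on simulated data.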

Additional observations from a re-analysis of the deposited data

How the results depend on the processing

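Over 12 other settings, 1 gene of the set was higher throughout and 3 were lower, except for 2 lower with at least 10 counts in every library, where ALDH1A2 was not tested, and 4 lower without OV3/COX1KD replicate 2, where ALDH1A1 passed. ALDH1A2, among the 3 lower genes, passed the filter of the main fit only through OV3/SCR. Genes past a fold change of 2.5 went from 1 to 0 with glmTreat, which tests against that limit. Total count scaling gave 3 Polycomb genes higher and 8 lower and turned the sign of SOX2 (-0.060) and ESRP2 (-0.057), and STRA6 turned without OV3/COX1KD replicate 2, with -0.11 to 0.27 on leaving out each library. Leaving out each library in turn gave 0 to 1 other ALDH genes lower, 3 to 6 retinoid genes lower and 5 to 8 surface and efflux markers lower, the last all below the 9 of the full set, and a difference in the ALDH1A3 share of -1.23 to 3.13 percentage points, negative without OV3/SCR replicate 2. The cause was not tested. Of 55 genes followed, 43 kept direction and call in every setting that gave a value.

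The labels speak of replicate pairs, but none ties a replicate number to a harvest shared across conditions, so a pairing is not settled. Deviations of same-number replicates from the condition means correlated by 0.0022 to 0.044 across genes, which are not independent replicates. In the other condition, 4 of 6 libraries correlated best with their own number. With 3 libraries to choose from, such matches can also arise without a pairing, and the choices are not independent. With the replicate block 8233 genes were called in place of 8293, 3 genes of the set were lower and 1 higher, and the FDR of CD44 was 1.8e-12. Depth limits PROM1 and ALDH3A1, for which a change within the counting intervals was not detectable.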
